A study of Mus musculus with 8 samples.

Results

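Major histocompatibility complex (MHC) class I molecules carry short peptides from inside the cell to its surface, where CD8 T cells read them. Each consists of a heavy chain, a peptide and the invariant light chain beta-2-microglobulin. Proteasomes cut the peptides, the TAP transporter moves them into the endoplasmic reticulum, tapasin holds the empty heavy chain beside TAP, and interferon exchanges the standard catalytic subunits of the proteasome for the immunoproteasome subunits. The transactivator NLRC5 drives this gene set through proteins bound at the class I promoters. Neurons and neuroblastoma cells typically carry little class I on their surface, and interferons raise it. Described here are 10 of the 55367 genes of the count table, chosen by name for their role: the classical heavy chain genes H2-K1 and H2-D1, B2m (beta-2-microglobulin), Tap1, Tap2, Tapbp (tapasin), the immunoproteasome subunits Psmb8, Psmb9 and Psmb10, and Nlrc5.

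RNA was sequenced from Neuro2a cells, a mouse neuroblastoma line. In CRISPR activation (CRISPRa), an inactive Cas9 fused to the activator VP64, here sadCas9-VP64, is brought to a promoter by a guide RNA (sgRNA), in this series directed at the sodium channel gene Scn2a. CRISPRa cells were transfected with 750 ng of sgRNA plasmid and the same amount of sadCas9-VP64 plasmid, and the no-sgRNA cells received sadCas9-VP64 alone, so both groups received the activator plasmid. Counts of 6 of the 8 labelled samples were analysed, 3 in each group: replicates 2, 3 and 5 of CRISPRa, and replicates 2, 3 and 4 of the group without sgRNA. The labels do not say whether replicates were separate cultures, so p-values measure only the spread between these samples. The control's plasmid amount is not stated, and the presence of a guide and the amount of plasmid cannot be told apart. Neuro2a comes from a strain A mouse, whose H2 alleles differ from those of the C57BL/6 reference. What that did to the counts of the H2 genes was not measured.

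The libraries held between 29739422 and 34248514 counts. Scn2a itself stood at 7.81 ± 0.714 CPM (counts scaled to a common library size; SD, n = 3) with CRISPRa and 5.61 ± 1.31 (n = 3) without sgRNA, which differ by 0.48 (SE 0.19) on the log2 scale (edgeR adjusted p = 0.0899). The authors' deposited table, labelled as over 8 samples rather than these 6, lists Scn2a at 0.62 with an adjusted p of 0.00138. Of 13 sympathoadrenal markers of neuroblastoma, 12 reached 1 CPM in every library. The summed level of the 13 was 2282 to 2565 CPM with CRISPRa and 2508 to 2702 CPM without sgRNA. This sum hides opposite moves: of 12 tested in edgeR, 2 were called higher and 2 lower, against 9.47% and 9.25% of all tested genes. Of 9 markers of leukocytes and antigen-presenting cells, 4 (Itgam, Itgax, Flt3 and Cd3e) were at 0 in every library and no marker exceeded 48 counts. Their summed level was 1.1 to 1.62 CPM with CRISPRa and 0.758 to 1.65 CPM without sgRNA. Fibroblast markers summed to 3.95 to 7.31 CPM with CRISPRa and 9.51 to 10.7 CPM without sgRNA, and the 3 endothelial markers to 7.43 to 10.9 and 9.56 to 13.3 CPM. Of these, Kdr was at 0 in every library, and Cdh5 was called higher, at 1.7 against 0.408 CPM (log2 fold change 2.04; edgeR adjusted p = 0.0105); its part in the results was not tested. In bulk RNA, fewer cells with a transcript and less transcript per cell cannot be told apart.

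Class I promoters hold a conserved block with an X2 box, bound by CREB and ATF factors, and an inverted CCAAT box, bound by NF-Y, and NLRC5 acts through the complex assembled there. Upstream of it lie an element for interferon regulatory factors and, at least in the heavy chain genes, one for NF-kB. RefSeq (GRCm38.p6) start sites gave upstream windows for 8 of the 10 genes, while Tap2 and Nlrc5 had no window. H2-K1 had 2 overlapping windows with the same kinds of motif, of which 1 is shown. The windows of H2-K1 and B2m are shown as those of a heavy chain gene and of the light chain gene. Each runs 5′ to 3′ toward the gene and covers the 250 bases before the start, at chr17:34000348-34000597 on the minus strand and chr2:122147437-122147686 on the plus strand. Capitals mark matches to the motifs searched.
H2-K1: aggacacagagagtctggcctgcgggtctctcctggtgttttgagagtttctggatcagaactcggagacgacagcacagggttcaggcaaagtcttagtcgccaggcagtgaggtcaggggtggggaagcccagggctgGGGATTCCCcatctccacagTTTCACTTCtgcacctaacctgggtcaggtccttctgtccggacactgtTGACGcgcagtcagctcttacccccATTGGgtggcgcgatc
B2m: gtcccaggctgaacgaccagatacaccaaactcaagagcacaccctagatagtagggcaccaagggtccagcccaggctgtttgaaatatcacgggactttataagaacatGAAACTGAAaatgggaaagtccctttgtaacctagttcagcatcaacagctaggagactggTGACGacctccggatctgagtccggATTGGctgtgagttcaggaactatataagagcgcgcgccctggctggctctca

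The motifs were searched on both strands, and the percentage of all 32851 mouse windows of the same length with a match is given for each. The interferon response core was searched as GAAANNGAA, present in 7.13% of windows and in that of B2m, and as GAANNGAAA, present in 6.31% and in those of H2-K1 and H2-D1. The NF-kB core GGGATTCCC was in 0.301% of windows and in those of H2-K1 and H2-D1. Other spellings of an NF-kB element were not searched, so a window without this one, such as that of B2m, may still hold such an element. The X2 core TGACG was in 17.8% of windows and in 5 of the 8 (H2-K1, H2-D1, B2m, Tap1 and Psmb9), and the CCAAT box in 33.8% and in 6 of the 8. The gamma-activated site TTCNNNGAA, the element of the interferon-gamma response, was in 7.02% of windows and in that of Psmb8. The Psmb10 window held none of these letters. These spellings were chosen with the sequences in view, and a match is a description of letters.

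The heavy chain genes and B2m share the spacing of the block. From the first base of TGACG to the first base of ATTGG, the CCAAT box on the opposite strand, there were 25 bases in H2-K1, H2-D1 and B2m. The stretches are shown to compare them, at chr17:34000359-34000388 (minus strand), chr17:35262993-35263022 (plus strand) and chr2:122147609-122147638 (plus strand), with the motifs in capitals.
H2-K1: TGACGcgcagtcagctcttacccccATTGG
H2-D1: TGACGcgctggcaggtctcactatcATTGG
B2m: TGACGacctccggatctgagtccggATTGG
Of the 30 bases, the H2-D1 stretch matched that of H2-K1 at 23 and the B2m stretch at 13. The NF-kB and interferon cores of the heavy chain genes also lay at equal spacing, 20 bases from first base to first base, and 28 of the 29 bases were identical (chr17:34000429-34000457, minus strand, and chr17:35262924-35262952, plus strand).
H2-K1: GGGATTCCCcatctccacagTTTCACTTC
H2-D1: GGGATTCCCcatctcctcagTTTCACTTC
The H2-D1 stretches lie within the leader of a longer H2-D1 transcript of GENCODE M21. The RefSeq windows of Tapbp, Psmb8 and Psmb9 likewise lie inside the GENCODE M21 spans of these genes. Where the H2-K1 and H2-D1 windows aligned, 166 of 190 bases (87.4%) were the same. The arrangement of TGACG, 20 bases and ATTGG on either strand occurred in 30 of all windows (0.0913%), which belong to 26 genes. Of the 23 that are not among the 10, 17 were tested, and of these 3 were called higher and 2 lower. Over all tested genes, 9.47% were called higher and 9.25% lower, and most genes with the arrangement were not called. H2-M3, a nonclassical class I gene, rose by 0.73 on the log2 scale (SE 0.17; edgeR adjusted p = 0.00771) and Trim26 by 0.54 (SE 0.07; 8.27e-05). Tecpr1 was also called higher and Hspa14 and Nasp were called lower, but these calls were lost in 3, 5 and 4 of the 6 fits that left out a library. Tap1 and Psmb9 stand back to back, and their windows share 225 bases.

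**Figure D1:**
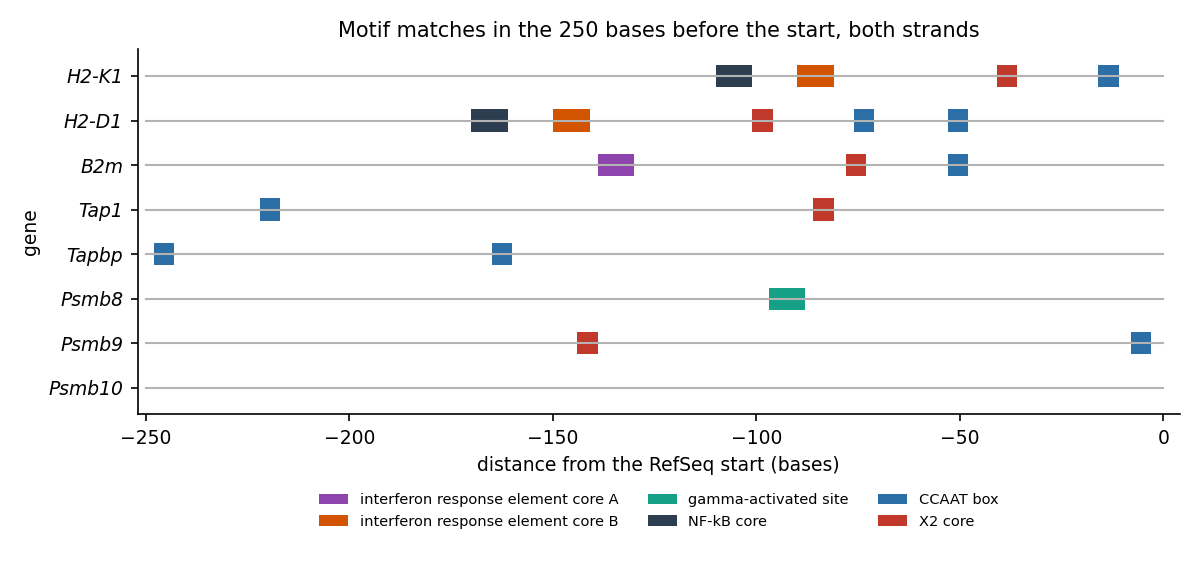
Motif matches along the 250 bases before each RefSeq start, drawn to scale as distance from the start, 1 line per gene with a window. Colours mark the motif; the X2 core and the CCAAT box keep their spacing of 25 bases in H2-K1, H2-D1 and B2m while their distance from the start differs.

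All 10 genes were higher in the CRISPRa libraries, and for each of them every CRISPRa library stood above every no-sgRNA library. Nlrc5 passed the filter on low counts only through the CRISPRa libraries, where it was high. Across the 15117 genes tested with edgeR, 18.7% were called changed at a Benjamini-Hochberg adjusted p under 0.05. Genes called higher made up 9.47% and genes called lower 9.25%, and 17.7% had every CRISPRa library above every no-sgRNA library. The median log2 fold change of the 10 was 1.23 (0.61 to 4.69), against -0.0071 over all tested genes, of which the 5th and 95th percentiles were -0.60 and 0.76. The 10 genes took 0.148% ± 0.00543 of all counts with CRISPRa and 0.0679% ± 0.00336 without sgRNA (SD, n = 3 each).

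**Figure D2:**
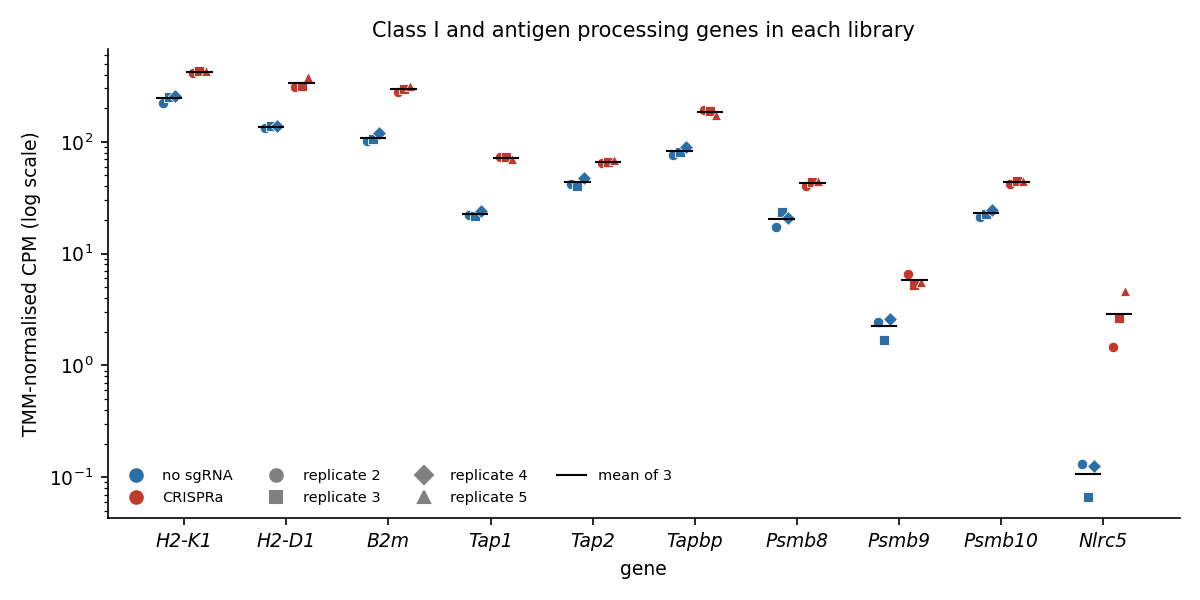
Expression of the 10 genes in each library, as TMM-normalised CPM on a log scale; colours mark the group, marker shapes the replicate and bars the group mean. No CRISPRa point lies within the no-sgRNA points of the same gene, from H2-K1 at 425 against 244 CPM down to Nlrc5 at 2.9 against 0.108 CPM.

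The heavy chain binds the peptide and is what the T cell receptor meets. H2-K1 (chromosome 17, 33996017 to 34000347, minus strand, GRCm38) was at 414, 434 and 427 CPM in replicates 2, 3 and 5 of CRISPRa, and at 223, 253 and 257 CPM in replicates 2, 3 and 4 without sgRNA. Values of each gene are given in this order of replicates throughout. The CRISPRa libraries lay close together, and the lowest of them was well above the highest control. H2-K1 rose 1.74-fold (log2 fold change 0.80, SE 0.07; edgeR adjusted p = 8.7e-07). H2-D1 (chromosome 17, 35262730 to 35267499, plus strand) was at 312, 313 and 381 CPM with CRISPRa and 133, 139 and 138 CPM without sgRNA, with CRISPRa replicate 5 above the other two. Its log2 fold change was 1.29 (SE 0.08; adjusted p = 1.47e-08), 2.45-fold. H2-D1 thus came closer to H2-K1: per kilobase of exon, the ratio of H2-D1 to H2-K1 was 0.858, 0.821 and 1.02 with CRISPRa and 0.679, 0.628 and 0.611 without sgRNA. The groups did not overlap in this ratio (exact two-sided permutation p = 0.1, the smallest that 3 against 3 libraries allow). The ratio was chosen after its values were seen, so its p is a description.

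Heavy chain genes resemble one another, and the authors' handling of reads that match several of them is not stated. In GENCODE M21 transcripts, 9.63% of the 50-base words of H2-K1 and 12.8% of those of H2-D1 also occur in another gene, foremost H2-Q10 and H2-Q1. A sum over 18 class I heavy chain genes, which does not depend on how reads were divided among them, rose 2.02-fold (log2 fold change 1.02, SE 0.07; edgeR adjusted p = 3.65e-08). The sum came to 28128, 27389 and 29302 counts with CRISPRa and 12062, 12910 and 13770 counts without sgRNA, of which H2-K1 and H2-D1 made up 88.9 to 90.6%. Reads discarded for matching several genes, or counted in related genes outside the 18, would not be part of it.

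B2m encodes the light chain, without which most heavy chains do not reach the surface. It lies outside the MHC (chromosome 2, 122147686 to 122153083, plus strand) and shares no 50-base word with another gene. B2m was at 277, 296 and 313 CPM with CRISPRa and 102, 105 and 120 CPM without sgRNA. It rose 2.71-fold (log2 fold change 1.44, SE 0.07; edgeR adjusted p = 1.89e-09). Per kilobase, B2m stood at 2.37 ± 0.117 times H2-K1 with CRISPRa and 1.53 ± 0.0917 times without sgRNA (SD, n = 3; exact permutation p = 0.1). Its ratio to H2-D1 was 2.66 ± 0.184 and 2.39 ± 0.188, and here the groups overlapped (log2 difference 0.15; exact permutation p = 0.2). Both ratios of B2m were chosen after their values were seen, so their p-values are descriptions.

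TAP is a heterodimer of TAP1 and TAP2, which pumps peptides from the cytosol into the endoplasmic reticulum. Tap1 (chromosome 17, 34187553 to 34197225, plus strand) was at 73.9, 72.5 and 69.6 CPM with CRISPRa and 22.3, 21.7 and 24.2 CPM without sgRNA. The lowest CRISPRa library was 2.88 times the highest control, the widest gap of the 10 apart from Nlrc5. Tap1 rose 3.17-fold (log2 fold change 1.67, SE 0.08; edgeR adjusted p = 7.51e-10). Tap2 (chromosome 17, 34203527 to 34216321, plus strand) was at 65.2, 65.9 and 68.1 CPM with CRISPRa and 41.7, 40.5 and 47.9 CPM without sgRNA. Its log2 fold change of 0.61 (SE 0.08; adjusted p = 0.000119), 1.53-fold, was the smallest of the 10. Per kilobase, the ratio of Tap1 to Tap2 was 0.783, 0.759 and 0.706 with CRISPRa and 0.369, 0.369 and 0.348 without sgRNA. This 2.07-fold difference (exact permutation p = 0.1) is of a ratio chosen after its values were seen. Which partner is the more abundant depends on the exon lengths: in CPM, Tap1 was above Tap2 in every CRISPRa library and below it in every control, whereas per kilobase of summed exon Tap2 was above Tap1 in all 6. Of the Tap2 exon bases, 18.5% are overlapped by exons of the opposite strand. The strandedness of the libraries is not stated, so reads of Tap2 and of those genes cannot be told apart there.

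Tapasin bridges TAP and the empty heavy chain and favours peptides that bind tightly. Tapbp (chromosome 17, 33915899 to 33929292, plus strand) was at 193, 187 and 175 CPM with CRISPRa and 75.8, 81.6 and 90.4 CPM without sgRNA. It rose 2.24-fold (log2 fold change 1.16, SE 0.08; edgeR adjusted p = 3.21e-08). Exons of Gm19412 and Zbtb22 overlap those of Tapbp, along 24.9% of its exon bases on the opposite strand and 4.11% on the same strand. Of the 50-base words of Tapbp, 23.2% occur in another gene, most of them in Gm19412.

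The immunoproteasome subunits replace the catalytic subunits of the standard proteasome: Psmb8 takes the place of Psmb5, Psmb9 that of Psmb6 and Psmb10 that of Psmb7. Psmb8 (chromosome 17, 34197721 to 34201454, plus strand) was at 40.2, 43.3 and 44.5 CPM with CRISPRa and 17.3, 23.6 and 20.9 CPM without sgRNA, and rose by 1.05 on the log2 scale (SE 0.11; edgeR adjusted p = 9.41e-06). Psmb9 (chromosome 17, 34181987 to 34187764, minus strand) was much rarer, with counts of 225, 170 and 181 under CRISPRa and of 74, 50 and 82 in the controls, or 5.77 ± 0.682 and 2.23 ± 0.483 CPM. It rose by 1.37 (SE 0.22; adjusted p = 0.000719), the widest error of the 10 apart from Nlrc5. Psmb10 (chromosome 8, 105935735 to 105938444, minus strand) lies outside the MHC, and was at 42.2, 45 and 44.7 CPM with CRISPRa and 21.4, 22.4 and 24.8 CPM without sgRNA. Its log2 fold change was 0.95 (SE 0.09; adjusted p = 3.29e-06). In fold, Psmb8 rose 2.07 times, Psmb9 2.58 times and Psmb10 1.93 times. Exons of Gm20496 overlap 14.7% of the Psmb8 exon bases on the opposite strand, and 11.9% of the 50-base words of Psmb8 occur in another gene. Exons of Tap1 overlap 5.79% of the Psmb9 exon bases on the opposite strand. With strandedness not stated, reads of these genes cannot be told apart there.

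None of the subunits they replace passed the test: the log2 fold changes of Psmb5, Psmb6 and Psmb7 were -0.08, -0.21 and -0.09 (edgeR adjusted p = 0.596, 0.0931 and 0.529). Without no-sgRNA replicate 2, Psmb6 was called lower, with an adjusted p of 0.0164. The ratio of immunoproteasome to standard subunit, per kilobase of exon, was higher with CRISPRa for each pair. Psmb8 to Psmb5 stood at 0.317, 0.308 and 0.293 with CRISPRa and 0.114, 0.149 and 0.157 without sgRNA. Psmb9 to Psmb6 stood at 0.0412, 0.034 and 0.037 against 0.0157, 0.00911 and 0.0132. Psmb10 to Psmb7 stood at 1.36, 1.42 and 1.36 against 0.739, 0.598 and 0.691. The exon length is the sum over all transcripts of a gene, so a ratio above or below 1 depends on it, while the difference between the groups does not: in CPM, Psmb7 was above Psmb10 in every library. The groups did not overlap in any of these pairs, which differed 2.21-fold, 3.02-fold and 2.04-fold (exact two-sided permutation p = 0.1 each, the smallest possible). Over the 7 ratios compared, the Benjamini-Hochberg adjusted permutation p was 0.117 for the 6 at the smallest value and 0.2 for B2m to H2-D1. The ratios of Tap1 to Tap2 and among H2-K1, H2-D1 and B2m were chosen after their values were seen. The adjustment does not cover that choice. Of the 50-base words of Psmb5, 54.1% occur in another gene, mostly Gm3375, so the Psmb5 level is uncertain.

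**Figure D3:**
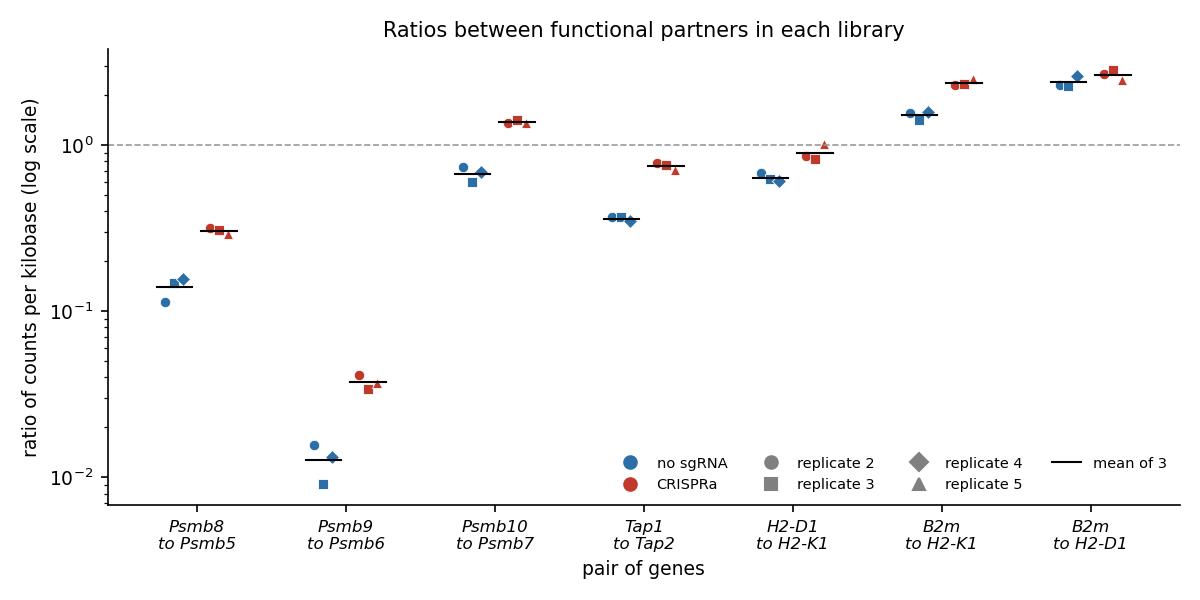
Ratios of exon-length-scaled levels for 7 gene pairs in each library, on a log scale; colours mark the group, marker shapes the replicate, bars the group mean and the dashed line a ratio of 1. The groups are apart in 6 pairs and overlap in B2m to H2-D1; the mean of Psmb10 to Psmb7 is 0.676 without sgRNA and 1.38 with CRISPRa, and the place of the line depends on the exon lengths.

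NLRC5 is the transactivator of class I genes, a relative of the class II transactivator CIITA, and is itself induced by interferon. Nlrc5 (chromosome 8, 94434356 to 94527272, plus strand) was the rarest of the 10 and differed most. Its counts were 50, 87 and 149 in replicates 2, 3 and 5 of CRISPRa, but 4, 2 and 4 without sgRNA, or 1.45, 2.66 and 4.59 CPM against 0.131, 0.0673 and 0.126 CPM. Every CRISPRa library was far above every control, the lowest of them 11.1 times the highest control. The pooled counts of 286 and 10 gave a CPM ratio of 26.7 (95% exact interval 14.3 to 56.3, covering counting error only). The fitted log2 fold change was 4.69 (SE 0.55; edgeR adjusted p = 3.86e-05), at rank 47 of all tested genes. With control counts of 4, 2 and 4, Nlrc5 passed the filter on low counts only through the CRISPRa libraries. Its p and rank are therefore a description.

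Nlrc5 was also the gene on which the CRISPRa libraries differed most among themselves. Its coefficient of variation over them was 54.6%, against 2.3 to 11.8% for the other 9 genes, and its highest library was 3.17 times its lowest, against at most 1.25 times. The counting intervals of the CRISPRa libraries did not overlap (exact Poisson, 37.1 to 65.9, 69.7 to 107 and 126 to 175 counts). CRISPRa replicate 5 had the most Nlrc5 and was also highest for H2-D1, B2m, Tap2 and Psmb8, but it was lowest for Tap1 and Tapbp.

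Between genes, levels are compared as TPM, the abundance scaled by library and by the summed exon length of the gene, on which the order of the genes depends. Without sgRNA the order was B2m (442), H2-K1 (290), H2-D1 (185), Tapbp (79.4), Psmb10 (46.7), Tap2 (40), Psmb8 (21.3), Tap1 (14.5), Psmb9 (2.13) and Nlrc5 (0.0445), and no neighbours in it overlapped. With CRISPRa, B2m was at 1252 TPM, above H2-K1 at 527 and H2-D1 at 473, whose libraries overlapped. Tapbp (186), Psmb10 (93.9) and Tap2 (64) followed in the same order. Tap1 (47.9) then stood beside Psmb8 (46), with overlapping libraries, where the controls had Psmb8 above Tap1. Psmb9 (5.74) and Nlrc5 (1.25) remained last.

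The authors' deposited table, a comparison of their own over samples it does not name, lists the 10 genes with positive log2 fold changes. In it H2-K1 has 0.87 (SE 0.06), H2-D1 1.32, B2m 1.51, Tap1 1.71, Tap2 0.66, Tapbp 1.30, Psmb8 1.10, Psmb9 1.36, Psmb10 1.01 and Nlrc5 4.21 (SE 0.48), and the largest adjusted p among them is that of Psmb9 (1.19e-08). Of the 13798 genes with an adjusted p in the authors' deposited table, 14.8% are under 0.05 with a positive value. The direction of that contrast is not stated, and a positive value was taken to mean higher with CRISPRa. It comes from samples of the same series, so it is not a separate experiment.

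**Figure D4:**
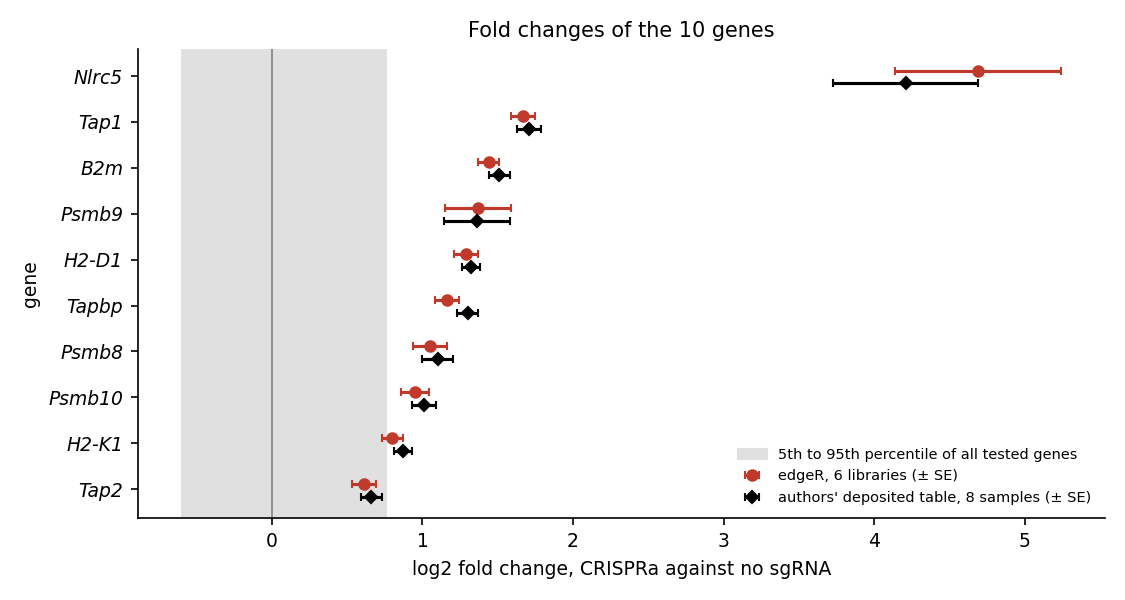
Log2 fold changes of the 10 genes, CRISPRa against no sgRNA, with standard errors, from edgeR over 6 libraries (circles) and from the authors' deposited table (diamonds). The grey band spans the 5th to 95th percentile of all tested genes, -0.60 to 0.76; Tap2, at 0.61, lies inside it and Nlrc5, at 4.69, lies farthest out.

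The wider pathway was followed in lists of related genes. Each count of calls stands beside 9.47% called higher and 9.25% called lower over all tested genes. Of 24 other class I and class I-like genes, 21 were in the count table and 13 were tested; 9 were called higher and none lower, with a median log2 fold change of 0.87. The genes called higher include H2-T23, which encodes Qa-1, the ligand of inhibitory NKG2 receptors (1.31, SE 0.15; edgeR adjusted p = 3.38e-05), and H2-Q4 (1.33, SE 0.11; 5.87e-07), at 25.1 CPM with CRISPRa and 9.98 CPM without sgRNA. H2-T22 (1.23), H2-T10 (1.19), H2-Q1 (1.29), H2-Q10 (1.41) and H2-M3 also rose. Of the 50-base words of H2-T22, H2-T10 and H2-Q4, 53.5%, 50.4% and 36.4% occur in another gene, so these may share reads. Mr1, which presents vitamin metabolites to MAIT cells, rose by 0.59 (SE 0.14; adjusted p = 0.00774). Hfe, a regulator of iron uptake, rose by 0.72 (SE 0.20; 0.0179), with adjusted p of 0.0555 to 0.0727 without CRISPRa replicate 5 or no-sgRNA replicate 4. Fcgrt, the neonatal Fc receptor, which also pairs with B2m, was the most abundant and had a log2 fold change of 0.16 (adjusted p = 0.177; 0.0287 without CRISPRa replicate 5).

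Among 7 loading chaperones and trimming enzymes, 3 were called higher and none lower, with a median of 0.32. The shares over all tested genes were 9.47% higher and 9.25% lower. Erap1, the aminopeptidase that trims peptides in the endoplasmic reticulum, was at 76.4, 84.6 and 95.6 CPM with CRISPRa and 38.9, 39.7 and 43.4 CPM without sgRNA, and so rose by 1.07 on the log2 scale (SE 0.09; edgeR adjusted p = 7.5e-07). Tapbpl, a second peptide editor related to tapasin, rose by 1.16 (SE 0.28; 0.0106), and Uggt1, which returns poorly folded glycoproteins to the chaperones, by 0.32 (SE 0.08; 0.00987). The general chaperones Calr, Canx and Pdia3 had log2 fold changes of 0.34, 0.10 and 0.15 (adjusted p = 0.0516, 0.285 and 0.218). Calr passed in 8 of 15 alternatives, among them the fit without CRISPRa replicate 2 (0.00829), and Pdia3 without no-sgRNA replicate 4 (0.0118). Of 6 cytosolic peptidases tested, which make or destroy peptides before transport, none was called higher. Thop1, an oligopeptidase known to degrade class I peptides, was called lower, by -0.31 (SE 0.07; adjusted p = 0.00734), at 66.1 CPM with CRISPRa and 81.9 CPM without sgRNA. Tpp2 stood at 0.04 (adjusted p = 0.709) and the leucine aminopeptidase Lap3 at 0.01 (0.966).

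Of 8 standard proteasome subunits, assembly factors and activators, 3 were called higher, all of them activators, and none lower. The median was 0.03, and 9.47% of all tested genes were called higher. Psme1 and Psme2 encode the PA28 ring that opens the proteasome. Psme1 was at 121, 131 and 132 CPM with CRISPRa and 83.1, 76.2 and 95.5 CPM without sgRNA (log2 fold change 0.59, SE 0.08; edgeR adjusted p = 0.000183). Psme2 was at 92.6, 97.8 and 100 CPM against 54.2, 63.5 and 66.8 CPM (0.65, SE 0.08; 7.11e-05), and 28.3% of its words occur in another gene, the copy Psme2b. Psme4, the PA200 activator, rose by 0.36 (SE 0.07; 0.00224). The count of changed genes was 5 without no-sgRNA replicate 2.

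Of 14 transcription factors of class I genes, 13 were tested, 4 were called higher and 2 lower, with a median of -0.07. Shares over all tested genes were 9.47% higher and 9.25% lower. Irf9 and Stat2 belong to interferon signalling. Irf9 rose by 2.48 (SE 0.07; edgeR adjusted p = 1.49e-12), Stat2 by 2.00 (SE 0.09; 4.29e-10) and Irf1, an activator at the interferon element, by 1.29 (SE 0.10; 3.98e-07), each a log2 fold change. Irf2, another interferon regulatory factor, stood at 0.02 (adjusted p = 0.919). None of the constitutive factors of the X2 and CCAAT block was called higher. Rfx5, Rfxap and Rfxank, the subunits of the RFX complex, had log2 fold changes of 0.00, -0.26 and -0.14 (adjusted p = 0.986, 0.209 and 0.532). The NF-Y subunit genes Nfya and Nfyc were called lower, by -0.24 (SE 0.07; 0.0266) and -0.39 (SE 0.11; 0.0281). Neither call held in every fit that left out a library: the adjusted p of Nfya was 0.0518 to 0.152 when any library but CRISPRa replicate 5 was left out, and that of Nfyc 0.0601 to 0.132 without CRISPRa replicate 2 or 3 or no-sgRNA replicate 3 or 4.

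Class II presents peptides from outside the cell and depends on CIITA, whose gene reached at most 8 counts and was not tested. Of 10 class II genes, 5 were at 0 in every library (H2-Aa, H2-Ab1, H2-Eb1, H2-Eb2 and H2-Ob). The 5 tested had a median of -0.20. Against 9.47% of all tested genes, 1 of the 5 was called higher. That gene, Cd74, the invariant chain, was at 79.8, 79.9 and 112 CPM with CRISPRa and 68.5, 74 and 68.6 CPM without sgRNA (log2 fold change 0.37, SE 0.11; edgeR adjusted p = 0.0311). The adjusted p was 0.0658 to 0.0978 without CRISPRa replicate 5 or without any 1 of the no-sgRNA libraries. H2-DMa, which edits class II peptides, did not pass the test (adjusted p = 0.234).

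**Figure D5:**
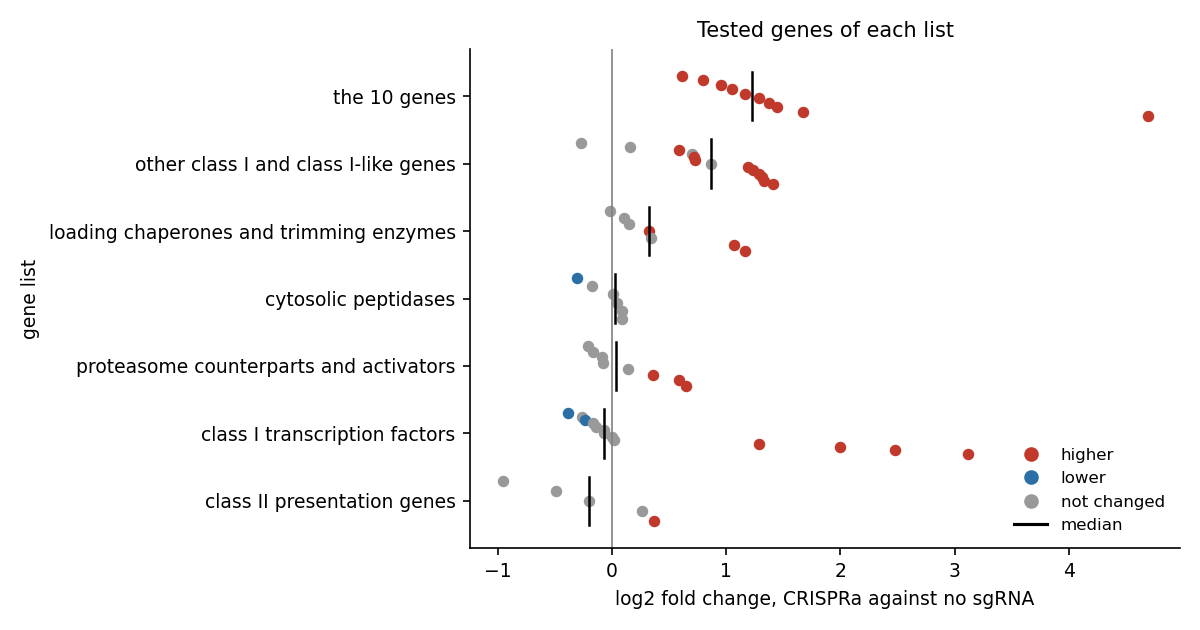
Log2 fold changes, CRISPRa against no sgRNA, of every tested gene of the 10 and of 6 related lists, 1 line per list; colours mark the call at an edgeR adjusted p under 0.05 and the black tick the list's median. The 10 genes lie at 0.61 or above, while the medians of the peptidases (0.02), the proteasome list (0.03), the transcription factors (-0.07) and class II (-0.20) lie near or below 0.

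Of the 10 genes, 7 lie in the MHC on chromosome 17, between Tapbp and H2-D1 (33915899 to 35267499). That span holds 145 other genes, of which 64 were tested. Called higher were 4, or 6.25%, against 9.47% of all tested genes, and 4 were called lower, with a median log2 fold change of -0.09. Those called higher were H2-K2, a class I pseudogene (1.09; edgeR adjusted p = 1.09e-05), and Gm15821, Col11a2 and Clic1, each of which lost the call in 4 of the 6 fits that left out a library. Gm15821 lies among Psmb9, Tap1, Psmb8 and Tap2 and shares words with Tap2, 9.22% of the words of Tap2. The 3 genes elsewhere, B2m, Psmb10 and Nlrc5, had log2 fold changes of 1.44, 0.95 and 4.69.

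The genes outside these lists whose levels followed the average of the 10 most closely were Isg20, Znfx1, Oas1c, Csrnp1 and Tor3a. That average weighs the 10 genes equally, so Nlrc5, at a log2 fold change of 4.69, raises it above the median of 1.23. Likeness was the root mean square distance over the 6 libraries between mean-centred log2 CPM values, and came to 0.071 for Isg20, 0.091 for Znfx1, 0.098 for Oas1c, 0.1 for Csrnp1 and 0.115 for Tor3a. Isg20 encodes an interferon-induced exonuclease, Znfx1 an RNA sensor and Oas1c a relative of the oligoadenylate synthetases, while Csrnp1 encodes a nuclear protein and Tor3a a torsin ATPase. Their log2 fold changes lay between 1.33 (Znfx1) and 1.57 (Tor3a), and distance ranks genes by size of change as well as by shape.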

How the data were processed

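Poly(A) RNA of transfected Neuro2a cells was sequenced. The authors deposited whole-number read counts per gene in featureCounts layout, per the file headers, with no normalisation, for 6 of 8 labelled samples; the other 2 were not analysed here. Exon length per gene comes from the same deposited table. STAR 2.5.1b, featureCounts and mm10 are named in the submitters' processing notes; strandedness and the treatment of multi-mapping reads are not given in the sources used here. A second deposited table holds the authors' comparison: per gene a mean signal, a log2 fold change and its SE, a Wald score, and p-values before and after adjustment. These were copied as deposited.

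Counts were tested in edgeR 4.0.16 (quasi-likelihood F test, R 4.3.3), with filterByExpr, TMM scaling (factors 0.978 to 1.01), no covariate, and Benjamini-Hochberg adjustment over 15117 genes; a gene was called at an adjusted p under 0.05. The SE is the log2 fold change divided by the square root of F. The script was tested on simulated data. CPM is TMM-scaled; a floor of 3 counts is 0.0876 to 0.101 CPM. TPM and ratios use exon length; single ratios were tested with exact two-sided permutation tests. Alternatives were scaling by RLE, upper quartile or library size alone, fits in DESeq2 1.42.0 and in limma 3.58.1 (voom), testing every gene with a count, a stricter filter (1 CPM or more in 4 libraries), leaving out each library, adjusted p thresholds of 0.01 and 0.1, and a replicate block. Replicate pairs within a group differed by more than sampling noise. In chi-square per degree of freedom, replicates 2 and 3 gave 4.88 with CRISPRa and 6.24 without sgRNA. Pairs with CRISPRa replicate 5 gave 18.8 and 17.1, and pairs with no-sgRNA replicate 4 gave 17.9 and 15.1. Why these libraries stood apart was not tested. Gene spans are from GENCODE M21 (GRCm38) and equal those of the count table for all 10 genes. Promoters are from RefSeq.

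The 10 genes and the lists were chosen with earlier results of these data known. Of each list the text names the genes called and up to 4 others among the most abundant, except that some are not reported here, though counts and medians over the lists include them; genes named by position or promoter arrangement, 4 of the 7 ratios and the motif spellings were chosen after their values were seen.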

Additional observations from a re-analysis of the deposited data

How the results depend on the processing

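Counted as 1 gene under 1 alternative setting, there were 149 fits over 15 settings. The 10 genes kept their direction and their call in each fit. The largest adjusted p was 0.00518, in the edgeR fit of Psmb9 without no-sgRNA replicate 3. Nlrc5 dropped out under the filter of 1 CPM in 4 libraries, leaving 9. The median of the 10 was 1.18 to 1.27. Of all genes, 1417 were called at an adjusted p under 0.01 in place of 2829, and 1987 to 2518 when a library was left out. The list counts that moved most were those of the loading chaperones, the cytosolic peptidases, the proteasome genes and class II. Changed loading chaperones numbered 6 with a replicate block and 6 in the same 4 libraries without it. Cytosolic peptidases numbered 3 and 3 in those fits and 2 at an adjusted p under 0.1. When a library was left out, proteasome genes numbered 3 to 5 and class II genes 0 to 1. Smaller moves included 4 to 6 class I transcription factors, 8 to 10 other class I genes and, in the remaining alternatives, 2 to 4 loading chaperones. The class II count was also 0 with the block, in its 4 libraries without the block and at an adjusted p under 0.01, with 1 class II gene at an unadjusted p under 0.05 in each of those edgeR fits. The block used libraries numbered 2 and 3, whose deviations were not correlated across genes (r = 0.0079). That value covers only these 4 libraries, so whether the numbers pair the samples cannot be told from it. Among genes outside the 10, Rfx5 changed sign around 0, with 0.00 under RLE scaling, no filter and DESeq2, 0.01 under library-size scaling, the stricter filter and limma-voom, and -0.12 to 0.11 over the fits that left out a library (0.03 without CRISPRa replicate 5). Rfxap was at 0.00 with the replicate block and in its 4 libraries without the block, and over the fits that left out a library Lap3 was at -0.03 to 0.02 and Irf2 at -0.05 to 0.06, both lowest without no-sgRNA replicate 2; the cause was not tested. With 3 libraries a group, an exact permutation test of a ratio cannot go below 0.1, and at 2 to 4 control counts the size of the Nlrc5 difference is known only within its interval.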
